A study of Mus musculus with 8 samples.

Results

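Potassium channel genes were taken as the protein-coding mouse genes whose symbol starts with Kcn, 94 of 21887 genes for proteins on the main mm10 chromosomes. They encode pore-forming channel subunits, their auxiliary subunits and 1 regulator, Kcnrg. FOS binding at these genes was mapped by chromatin immunoprecipitation and sequencing (ChIP-seq) in cortical microglia, enriched on a Percoll gradient and sorted by flow cytometry. The 4 mice were at postnatal day 30 and were killed 4 h after a unilateral intracerebroventricular injection of IL-33. A FOS library and an input came from every mouse. IL-33 was thus given to the whole set, no mouse injected with vehicle was analysed here, and nothing below compares IL-33 with vehicle. The sources used here give no strain, sex or genotype.

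Potassium channels let potassium leave the cell and so set the membrane potential, which in microglia governs calcium entry, process movement and cytokine release. Microglia have few channel types for this, chiefly a tandem-pore background channel, inward rectifiers, and voltage-gated and calcium-activated channels that are also used by macrophages and T cells. Neurons have a far larger set that shapes action potentials. Potassium efflux is also a trigger of the NLRP3 inflammasome. FOS is a subunit of the transcription factor AP-1, which is induced within hours of immune stimulation.

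The measurements are regions of 1 merged table. A FOS region holds a peak of the authors' merged FOS list. A shared region also holds a peak of a second list, named in its header as IL-33 versus vehicle and called the IL-33 list here. An IL-33-only region holds no FOS peak. The number that ends a FOS peak's name, from 1 to 4, was taken to count the FOS libraries with that peak, an inference, and is called its number of calls. The score of a region is the statistic in the authors' file, with the dilution by peaks of the IL-33 list undone. The sources used here do not state its scale, so scores only rank regions within this table. Each region went to the coding gene with the body closest to the region's centre, up to a distance of 100 kb. The table has no values per library, so sequencing depth is unknown, no value below has a replicate error, and counts are set beside those of all coding genes without a test. Nearness does not show that a gene is controlled by a region.

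FOS regions stood at 42 of the 94 Kcn genes (44.7%), against 11076 of all 21887 coding genes (50.6%). The Kcn family as a whole was therefore not richer in FOS regions than coding genes in general. Of the 15 Kcn genes with the highest scores, 5 were among the 8 channels known from microglia or macrophages, 4 among the 26 known mainly from neurons and 6 among the others. The list of 8 is called microglial below, though it takes in macrophage channels. Both lists group channels by the cells they are known from, but they were chosen with earlier results of these data known, so the percentages below describe the listed genes and are not independent evidence of a difference between the lists. A FOS region of 4 calls stood at 6 of 8 microglial channel genes (75.0%), 1 of 26 neuronal channel genes (3.85%), 6 of 60 other Kcn genes (10%) and 17.5% of all coding genes. Over the whole family it was 13 of 94 (13.8%). A shared region stood at 3 microglial channel genes (37.5%), 1 neuronal channel gene (3.85%), 0 other Kcn genes and 4.34% of all coding genes.

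**Figure D1:**
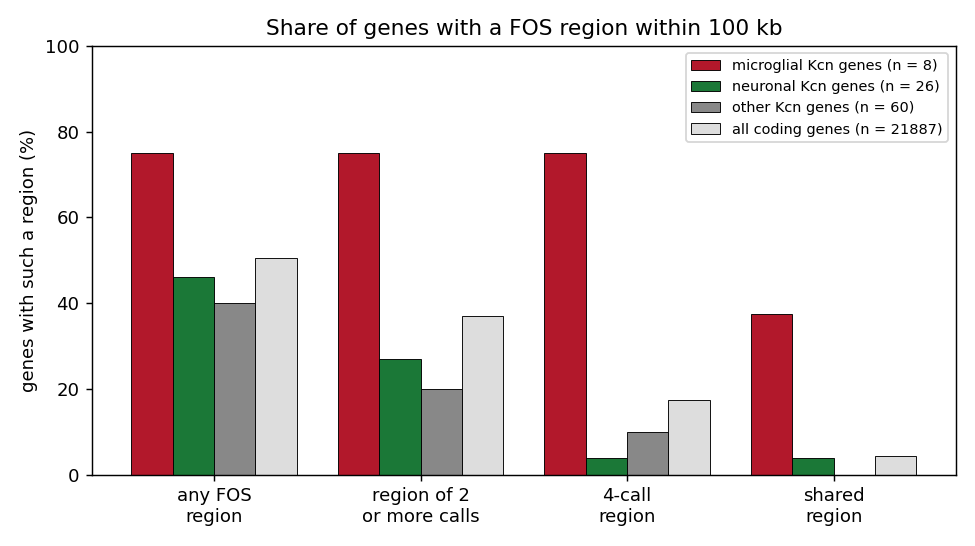
Percentage of genes (vertical axis) with any FOS region, a FOS region of 2 or more calls, a 4-call FOS region or a shared region within 100 kb, for microglial, neuronal and other Kcn genes, on lists chosen with earlier results of these data known, and for all coding genes. Microglial channel genes stand at 75.0% in the first 3 groups of bars, while the neuronal and other Kcn genes lie below all coding genes in every group.

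The FOS regions of Kcn genes numbered 96, of which 90 were FOS-only and 6 shared, and 3 further regions were IL-33-only. None of the 99 was assigned to a second coding gene. The median score was 16.0 in the 96 regions, against 20.2 in all 31473 FOS regions of the table. The share of 4-call regions was 22.9% in each of them. Microglial channel genes held 32 regions with a median of 23.9, 12 of them from 4 calls. Neuronal channel genes held 19 regions with a median of 7.85, 2 of them from 4 calls. The other Kcn genes held 45 regions with a median of 11.8, 8 of them from 4 calls. Without Kcnk13, the gene with the most regions, the microglial median was 21.0 over 21 regions.

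**Figure D2:**
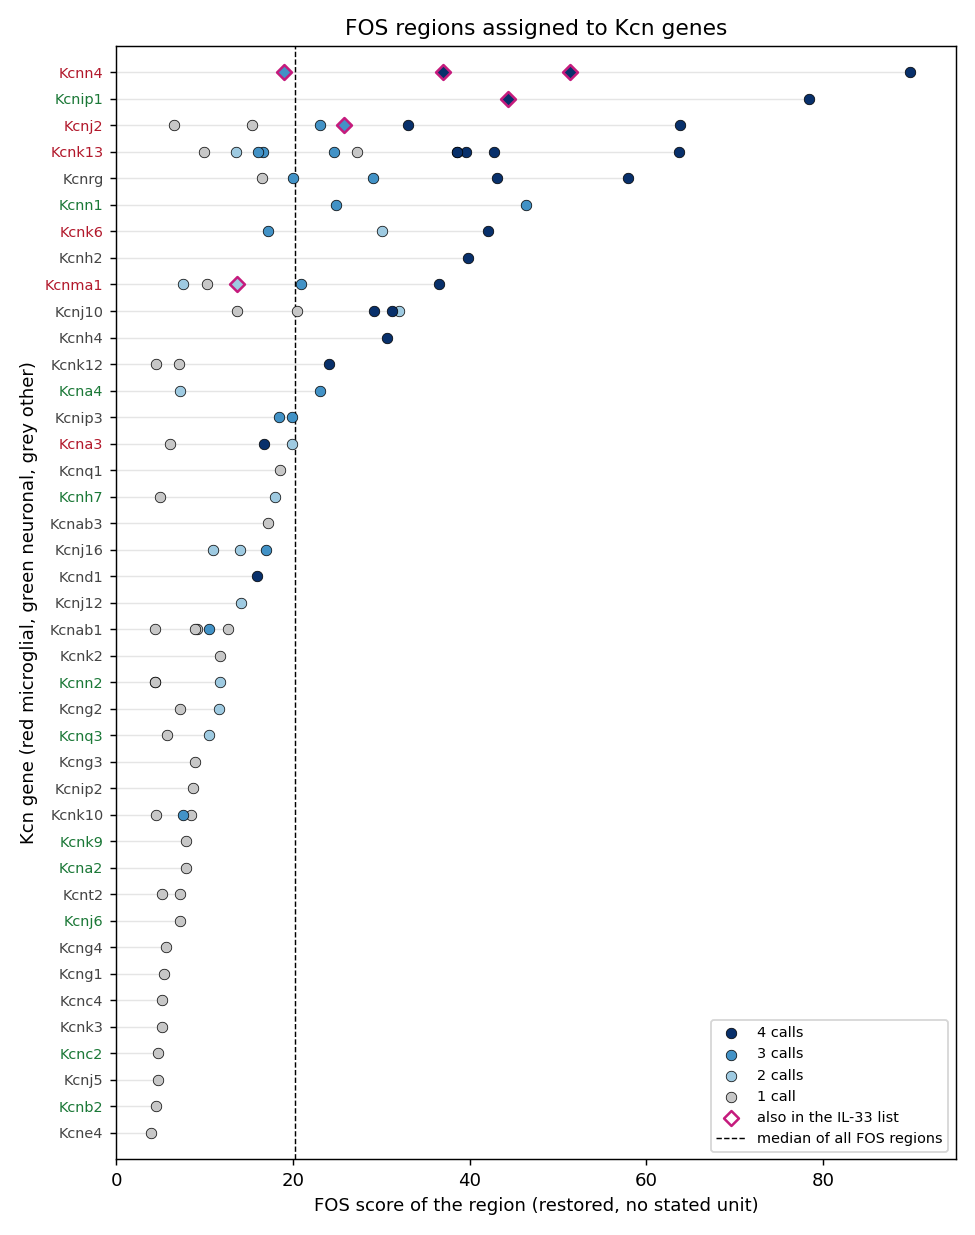
FOS score of each FOS region (horizontal axis, no stated unit) at the Kcn genes named on the vertical axis, ordered by their highest score; shade gives the number of calls and diamonds mark regions that are also in the IL-33 list. Kcnn4, Kcnip1, Kcnj2 and Kcnk13 lead, and the 15 lowest genes, from Kcng3 down to Kcne4, all score below 9.

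Among the calcium-activated channels, Kcnn4 had the highest score of the family. It encodes the intermediate-conductance calcium-activated channel KCa3.1, which microglia, macrophages and T cells use to keep the potential negative during calcium entry. The gene lies on chromosome 7 and is 15.4 kb long. Its 4 FOS regions scored 37.0, 19.0, 89.8 and 51.4 in order along the gene, from 4, 3, 4 and 4 calls. The first, at chr7:24373889-24374389, lay inside the gene 3.88 kb after the start site, and the second 9.84 kb after it. The strongest, at chr7:24387267-24387587, lay 2.21 kb beyond the gene's end and ranked 96 among the 31473 FOS regions. The last, at chr7:24389384-24389884, lay 4.42 kb beyond the end. All but the strongest were shared with the IL-33 list, and an IL-33-only region followed 918 bp after the last. The next coding gene, Smg9, lay 10.1 kb from the strongest region, so that region was nearer to Kcnn4 than to any other coding gene. The margin was narrower farther on. Smg9 lay 7.883 kb from the last FOS region and 6.965 kb from the IL-33-only region, against 4.42 and 5.34 kb for Kcnn4. Kcnn4 thus held 3 of the 6 shared regions of the family.

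Kcnma1 encodes the large-conductance calcium-activated channel BK, which neurons, smooth muscle and microglia use. It is 712.8 kb long and had 5 FOS regions, all inside the gene. A region of 1 call at the start site scored 10.3. The other 4 lay together between 164.4 and 231.4 kb into the gene and scored 21.0, 36.5, 13.7 and 7.55, from 3, 4, 2 and 2 calls. The region of 13.7 was shared. The best of them ranked 4464 among all FOS regions, and it was the 1 region of 4 calls in this very long gene. Kcnn3, which encodes the small-conductance channel SK3 and counts among the microglial channels, had no FOS region. Of the other small-conductance genes, both on the neuronal list, Kcnn1 had a region of 46.4 from 3 calls at 17 bp outside its body, 2.52 kb from the neighbouring gene Ccdc124, and another of 24.9 inside. Kcnn2 had 3 regions, the strongest of which scored 11.7. The sodium-activated channel gene Kcnt1 had none and Kcnt2 had 2 regions of 1 call, at 7.23 and 5.16. The group was formed by symbol, from Kcnma, Kcnn, Kcnt and Kcnu genes. In all, 5 of its 8 genes had a FOS region (62.5%, against 50.6% of all coding genes) and 2 a 4-call region (25%, against 17.5%).

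Among the tandem-pore background channels, Kcnk13 had the most regions of the family. It encodes THIK-1, the channel that carries the tonic potassium current of resting microglia and on which their surveillance by moving processes depends. The gene is 99.5 kb long, on chromosome 12. There were 11 FOS regions, 10 inside the gene and 1 at 4.96 kb beyond its end. Along the gene they scored 39.6, 27.2, 38.6, 16.6, 16.1, 63.7, 24.7, 42.7, 9.91, 13.6 and 38.6, from 4, 1, 4, 3, 3, 4, 3, 4, 1, 2 and 3 calls. The 4-call regions were thus spread from 2.92 to 58.3 kb after the start site, with the strongest, at chr12:100005310-100005659, 41.0 kb into the gene. Of the 3955 coding genes between 50 and 200 kb long, 177 (4.48%) had 11 or more FOS regions. None of the 11 was in the IL-33 list, and no region of that list lay nearer to them than 92638 bp. Of all 4-call FOS regions in the table, 11.5% were in the IL-33 list.

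Kcnk6, which encodes TWIK-2, a channel of macrophages through which potassium leaves before NLRP3 activation, had 3 FOS regions. They scored 17.2, 42.1 and 30.1, from 3, 4 and 2 calls. The strongest lay inside the gene and the last 50 bp outside it, and none was shared. Kcnk12, which encodes the related THIK-2, had a 4-call region of 24.1 at 1.5 kb after its start site, beside regions of 7.15 and 4.54. The other tandem-pore genes with a region, Kcnk2, Kcnk3, Kcnk9 and Kcnk10, had no score above 11.8. FOS regions were found at 7 of the 14 tandem-pore genes (50%) and 4-call regions at 3 (21.4%), namely Kcnk6, Kcnk12 and Kcnk13, shares close to the 50.6% and 17.5% of all coding genes.

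Among the inward rectifiers, Kcnj2 led. It encodes Kir2.1, which holds the resting potential of many cells and is a classical microglial current. Its 6 FOS regions included 1 of 15.4 from 1 call whose centre lay 214 bp before the start site. The next 3 formed a group downstream, at 23.0, 27.0 and 30.6 kb after the start, with scores of 25.8, 33.0 and 63.8 from 3, 4 and 4 calls. Those 3 lay between 12.3 and 20.0 kb beyond the gene's end. The first of them, at chr11:111088909-111089409, was shared, and an IL-33-only region lay 522 bp from the strongest, at chr11:111096640-111096969. The group thus held peaks of both lists. The next coding gene was another inward rectifier, Kcnj16, 68.8 kb from the strongest region. The last 2 regions lay 82.7 and 88.3 kb beyond the end of Kcnj2 and scored 6.5 and 23.0.

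Kcnj10 and Kcnj16, which encode the Kir4.1 and Kir5.1 subunits of glia, had 5 and 3 FOS regions. Kcnj10, the channel of potassium buffering by astrocytes, had scores of 29.2, 32.1, 20.5, 31.3 and 13.7, from 4, 2, 1, 4 and 1 calls. Those of Kcnj16 were 10.9, 17.0 and 14.1, from 2, 3 and 2 calls. A further 3 inward rectifier genes, Kcnj5, Kcnj6 and Kcnj12, each had 1 region of at most 14.1, and the other 9 of the 15 had none. The share with a FOS region was thus 40.0% of inward rectifier genes, against 50.6% of all coding genes. A 4-call region stood at 2 of the 15 (13.3%), against 17.5% of all coding genes. Markers of astrocytes had a FOS region in 3 of 7 genes (42.9%, against 50.6% of all coding genes) and a 4-call region in 2 (28.6%, against 17.5%). Among them the glutamate transporter genes Slc1a3 and Slc1a2 had 11 and 8 FOS regions with highest scores of 40.2 and 28.6, Gfap had 1 region of 7.23, and Aldoc, Aqp4, Gjb6 and Aldh1l1 had none. Whether other glia in the sort bear on the regions of Kcnj10 was not tested.

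**Figure D3:**
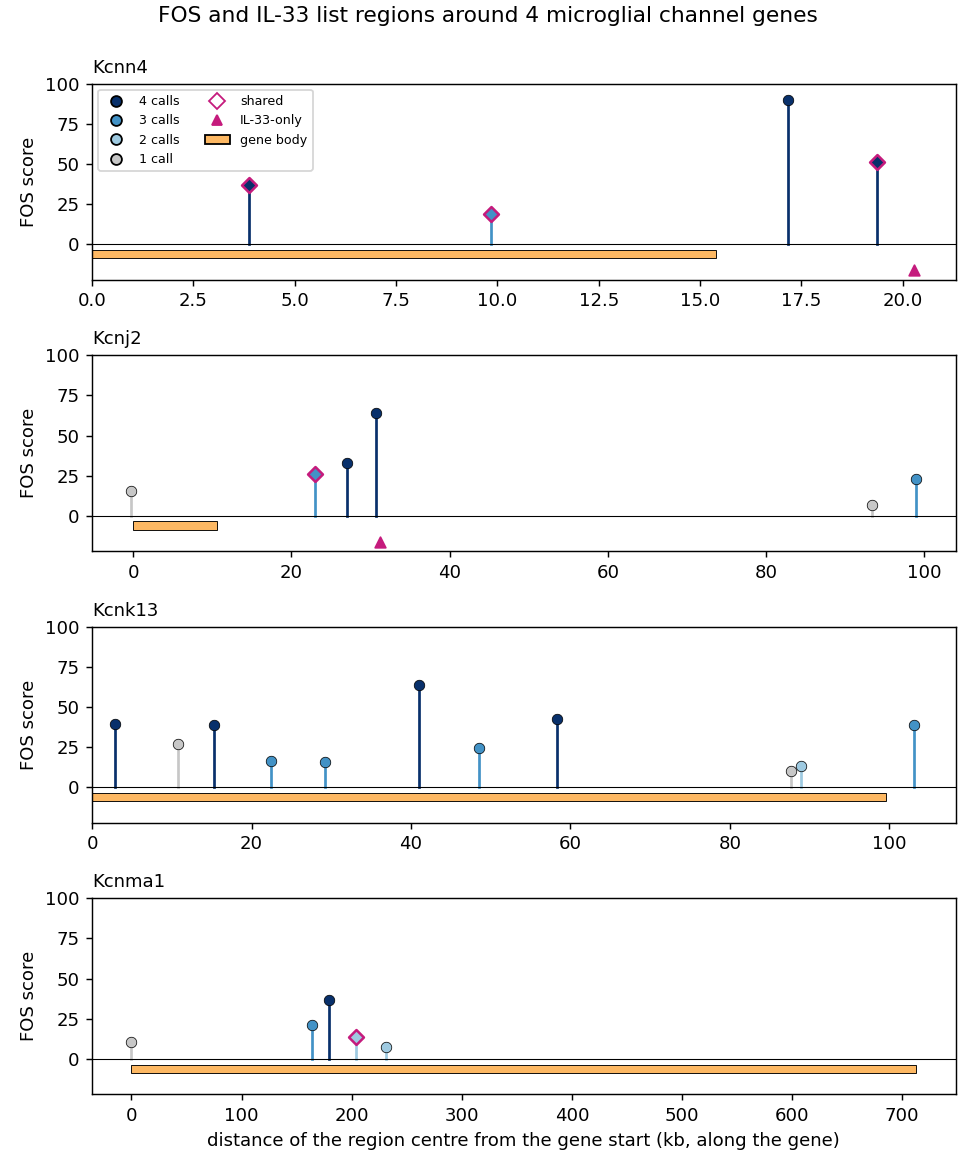
FOS score of each region (vertical axis) against the distance of its centre from the gene start in kb along the gene (horizontal axis) at Kcnn4, Kcnj2, Kcnk13 and Kcnma1; bars are gene bodies, diamonds shared regions and triangles IL-33-only regions, which have no score. At Kcnn4 and Kcnj2 the strongest region lies beyond the gene's end beside regions of the IL-33 list, and at Kcnk13 the 4-call regions are spread over the first 58.3 kb of the gene.

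The voltage-gated pore subunits are the largest group, and FOS regions were found at 17 of 40 (42.5%), against 50.6% of all coding genes. A 4-call region stood at 4 of the 40 (10%), against 17.5% of all coding genes. Kcna3 encodes Kv1.3, the delayed rectifier that activated microglia and T cells express. The gene is 1.97 kb long and had 3 FOS regions, at 1.21 kb before the start site, 165 bp beyond the end and 24.7 kb beyond the end. They scored 16.8, 19.9 and 6.07, from 4, 2 and 1 calls. The region of 4 calls lay below the median of all FOS regions, so it was recurrent and weak. Kcna5, which encodes Kv1.5, also reported in microglia, had no FOS region. Among the other voltage-gated genes, 4-call regions stood at Kcnh2, the channel of cardiac repolarisation (39.8, 52.9 kb from the gene), Kcnh4 (30.6, inside the gene) and Kcnd1 (15.9, 89 bp from it). Kcna4 had regions of 23.1 and 7.23, both over 65 kb from the gene.

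The auxiliary and regulatory genes had a FOS region in 7 of 17 cases (41.2%, against 50.6% of all coding genes), and the 2 leading ones lay far from their genes. A 4-call region stood at 2 of the 17 (11.8%), against 17.5% of all coding genes. Kcnip1 encodes a calcium-binding partner of Kv4 channels in neurons and is the neuronal-list gene with 4-call regions. At 17.6 kb from the gene, chr11:34010792-34011119 scored 78.4 from 4 calls and ranked 216 among all FOS regions. At 18.8 kb, a shared region scored 44.4 from 4 calls, and an IL-33-only region lay 558 bp from the stronger of them. All 3 lay upstream of the gene, and on the far side the next coding gene was Lcp2, which encodes the SLP-76 adaptor of leukocytes, at 36.0 kb from the stronger region. Nearest distance therefore gave these regions to Kcnip1, and within 10 kb Kcnip1 had no FOS region. Which of these genes the regions serve was not tested.

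Kcnrg, which encodes a regulator that interferes with the assembly of voltage-gated channels, had 5 FOS regions between 36.0 and 83.8 kb from the gene. They scored 29.0, 43.1, 16.5, 57.9 and 20.0, from 3, 4, 1, 4 and 3 calls. The first 3 lay inside the non-coding gene Dleu2, and the region of 57.9 overlapped its promoter window. No FOS region lay within 10 kb of Kcnrg. The next coding gene, Trim13, was only a little farther from all 5, at 38.6 kb from the first and 86.3 kb from the last. Which gene these regions serve was not tested. Kcnip3, which encodes calsenilin, a calcium-binding protein that is also known as a transcriptional repressor, had 2 regions inside the gene, of 19.9 and 18.4 from 3 calls each. Kcnab1, which encodes a cytoplasmic subunit of Kv1 channels, had 5 regions of at most 12.7. No Kcne or Kcnmb gene had a FOS region except Kcne4, with 1 region of 3.92 at 75.9 kb.

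The neuronal list had a FOS region at 12 of 26 genes (46.2%, against 50.6% of all coding genes). Kcnip1 aside, the 11 others had highest scores between 4.54 and 46.4. Their 17 regions had a median score of 7.85, and 9 of the 17 rested on 1 call. All 9 had a width of 270 bp, a width that no FOS region of 2 or more calls had and that 50.9% of all 1-call FOS regions had. The sources used here do not say whether 270 bp marks peaks of a single library. Among regions of 1 call, 1 of 6 at microglial channel genes and 17 of 25 at other Kcn genes had this width. Over any number of calls it was 1 of 32 regions at microglial channel genes and 20.2% of all FOS regions. The 14 neuronal genes without a FOS region included Kcna1, Kcnc1, Kcnd2, Kcnh1, Kcnh3, Kcnip4, Kcnj3, Kcnj9, Kcnq5, Kcns2, Kcnt1 and Kcnv1. For comparison, 10 of 10 marker genes of microglia and 3 of 10 marker genes of neurons had a FOS region, and a 4-call region stood at 9 and 1 of them, against 50.6% and 17.5% of all coding genes. Markers of oligodendrocytes had a FOS region in 3 of 7 genes (42.9%) and a 4-call region in 2 (28.6%).

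Of the 96 FOS regions of Kcn genes, 41.7% rested on 1 call, close to the 39.8% of all FOS regions. By gene the shares lay farther apart. Of the 42 genes with a FOS region, 17 (40.5%) had only regions of 1 call, against 26.8% of the 11076 coding genes with a FOS region. Of these 17, 0 were microglial, 5 neuronal and 12 other genes. A region of 2 or more calls stood at 25 of the 94 Kcn genes (26.6%), against 37.0% of all coding genes. A region with a score of 29.7 or more, the upper 25% of all FOS regions, stood at 12 Kcn genes (12.8%), against 18.7% of all coding genes. Those 12 were 5 microglial, 3 neuronal and 4 other genes. The median score by number of calls was 7.23, 13.7, 20.0 and 39.7 at 1, 2, 3 and 4 calls in Kcn regions, against 12.4, 19.4, 24.7 and 35.7 in all FOS regions. Kcn medians were thus lower at 1 to 3 calls and higher at 4.

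Long genes have more room for regions, and Kcn genes are long, with a median of 32.7 kb against 17.2 kb for all coding genes. In every length class the Kcn share with any FOS region lay below that of all coding genes. It was 19.0% against 30.3% up to 10 kb, 48.6% against 58.2% from 10 to 50 kb, 55.0% against 70.9% from 50 to 200 kb and 55.6% against 63.3% above 200 kb. For 4-call regions the short genes did not lie below, and the long ones did. The shares were 9.52% against 8.47% up to 10 kb, 20.0% against 19.1% from 10 to 50 kb, 10% against 29.0% from 50 to 200 kb, and 11.1% against 29.2% above 200 kb. Kcnk13 and Kcnk12 were the Kcn genes between 50 and 200 kb with a 4-call region, and Kcnma1 and Kcnip1 those above 200 kb.

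**Figure D4:**
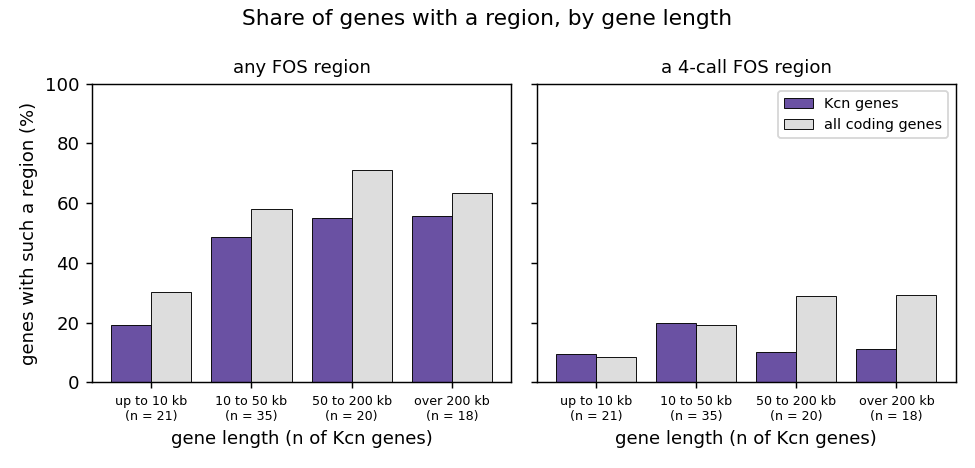
Percentage of genes with any FOS region (left) or a 4-call FOS region (right) within 100 kb (vertical axis) by gene length class (horizontal axis), for Kcn genes and all coding genes. Kcn genes lie below all coding genes in each class on the left, and above 50 kb on the right, where they stand at 10% and 11.1% against 29.0% and 29.2%.

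By position, 56 of the 96 FOS regions (58.3%) lay inside the gene, 13 outside within 10 kb and 27 farther away. A FOS region inside the gene stood at 25 Kcn genes (26.6%), against 38.2% of all coding genes, and 1 within 10 kb at 31 (33.0%), against 47.7%. The distance limit of 100 kb had Kcnj2 just inside, with its region at 88.3 kb scoring 23.0, and Kcnrg just outside, with a region at 112.3 kb scoring 15.3. Promoter windows, from 250 bases before to 50 after a start site, were matched by symbol for 69 of the 94 Kcn genes in RefSeq on GRCm38.p6. A FOS region overlapped a window at 6 of the 69 (8.70%), against 29.7% of coding genes with such an entry. These were Kcnj2, Kcnma1, Kcnj16, Kcnab1, Kcnk10 and Kcnt2, with scores from 7.23 to 15.4, all below the median of all FOS regions. The count leaves out regions at gene ends that such windows do not cover. The region of 46.4 at Kcnn1 lay 17 bp outside the gene and overlapped none of its windows. Kcnk6 and Kcnd1, with regions of 30.1 and 15.9 at 50 and 89 bp outside the gene, had no window.

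At Kcnn4, Kcnj2, Kcnk13 and Kcnma1 the strongest region lay 17.2, 30.6, 41.0 and 179.1 kb after the start site. The windows of Kcnj2 (chr11:111065914-111066213, plus strand) and Kcnma1 (chr14:24004156-24004455, minus strand) are printed because each overlapped a FOS region, and capitals mark the bases inside it, 188 and 232 of 300. The windows of Kcnn4 (chr7:24370013-24370312, plus strand) and Kcnk13 (chr12:99964249-99964548, plus strand), the genes with the highest score and the most regions, held no base of a FOS region. All 4 read 5′ to 3′ along the gene.
Kcnj2: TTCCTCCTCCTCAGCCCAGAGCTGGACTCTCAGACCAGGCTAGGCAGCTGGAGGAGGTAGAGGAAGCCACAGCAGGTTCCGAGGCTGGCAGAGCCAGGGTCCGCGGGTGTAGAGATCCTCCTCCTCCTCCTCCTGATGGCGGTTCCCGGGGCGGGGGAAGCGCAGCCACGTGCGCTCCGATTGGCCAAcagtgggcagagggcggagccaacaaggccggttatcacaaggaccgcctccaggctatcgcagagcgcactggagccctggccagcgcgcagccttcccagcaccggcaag
Kcnma1: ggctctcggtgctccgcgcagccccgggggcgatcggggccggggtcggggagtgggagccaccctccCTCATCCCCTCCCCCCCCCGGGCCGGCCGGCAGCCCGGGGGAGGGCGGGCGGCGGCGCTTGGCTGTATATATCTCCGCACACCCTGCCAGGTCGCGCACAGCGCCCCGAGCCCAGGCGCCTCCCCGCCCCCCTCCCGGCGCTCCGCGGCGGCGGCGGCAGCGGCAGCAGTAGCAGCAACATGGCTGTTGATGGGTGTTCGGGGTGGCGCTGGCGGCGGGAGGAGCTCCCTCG
Kcnn4: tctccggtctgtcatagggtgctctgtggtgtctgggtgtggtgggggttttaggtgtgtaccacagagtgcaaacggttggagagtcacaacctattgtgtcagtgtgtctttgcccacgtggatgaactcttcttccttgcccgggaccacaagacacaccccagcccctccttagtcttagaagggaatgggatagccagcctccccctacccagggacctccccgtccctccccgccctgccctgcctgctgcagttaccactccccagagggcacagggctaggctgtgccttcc
Kcnk13: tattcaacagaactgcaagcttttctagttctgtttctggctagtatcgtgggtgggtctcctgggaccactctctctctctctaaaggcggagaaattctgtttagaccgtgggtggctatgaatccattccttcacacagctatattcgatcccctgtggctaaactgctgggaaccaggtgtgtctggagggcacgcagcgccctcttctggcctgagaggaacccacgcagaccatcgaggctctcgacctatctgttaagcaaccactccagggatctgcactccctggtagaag

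The AP-1 motif TGANTCA, which is its own reverse complement, was searched in the same windows. It was found in 0 of the 6 Kcn windows that overlapped a FOS region, against 4.76% of all coding windows that did. It was found in 4 of all 94 Kcn windows (4.26%), against 6.99% of 21263 coding windows. The 4 lay at Kcne3, Kcnip3, Kcnip4 and Kcnk2, and are shown with 10 bases on each side and the motif in capitals.
Kcne3: taaggtggtaTGAATCAgagtttctga
Kcnip3: gctaattggcTGACTCAataaaaaggg
Kcnip4: gcttacatgcTGATTCAttgatgagct
Kcnk2: catcctccccTGACTCAgtcatacagt
None of these 4 windows overlapped a FOS region, and the nearest case was Kcnip3, whose region of 18.4 lay 2.39 kb after the start site. The sequence under the strong regions of Kcnn4, Kcnk13 and Kcnj2 was not analysed here.

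Regions of the IL-33 list stood at 4 Kcn genes (4.26%), against 5.64% of all coding genes. They were Kcnn4 (3 shared and 1 IL-33-only), Kcnj2 and Kcnip1 (1 shared and 1 IL-33-only each) and Kcnma1 (1 shared). Of the family's FOS regions 6.25% were shared, against 4.92% of all FOS regions. The 3 IL-33-only regions lay 558, 522 and 918 bp from a FOS region, at Kcnip1, Kcnj2 and Kcnn4. Of all IL-33-only regions, 48.3% lay within 1 kb of a FOS region, centre to centre. At each of these 3 genes the 2 lists thus met in the same stretch of a few kb, and at Kcnk13, Kcnk6 and Kcna3 the IL-33 list had no region.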

How the data were processed

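FOS ChIP-seq was done on cortical microglia of 4 mice, giving 4 FOS and 4 input libraries. Per the file headers, the authors merged 2 peak lists with mergePeaks of HOMER into the deposited table. The submitters' processing notes name Bowtie2, HOMER, mm10 and GRCm38. The sources used here do not state peak calling settings, how inputs were used or which assay gave the IL-33 list. Per the file headers, the deposited score is a statistic per region, and the deposited count is the number of merged peaks. These counts are not reads, and depth per library is unknown.

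The deposited score was 0 in all 1300 IL-33-only regions, so the score of a region was multiplied by its merged peaks and divided by its FOS peaks. After this, 98.7% of 1517 shared regions with 1 FOS peak and a score of 10 or more gave a whole multiple of 0.1 when multiplied by the calls (tolerance 0.02 of the step), against 45.9% as deposited.

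Genes came from RefSeq (GRCm38.p6). Python 3.11.15 with pandas 2.3.3 was used, and the assignment was tested on simulated data. The members, the lists of 8 microglial and 26 neuronal genes and the naming rule were chosen with earlier results of these data known. Named genes were the microglial list, the 15 highest scores, genes with IL-33 list regions, those with most regions and neuronal genes with 4-call regions. Values of a few single genes that the rule names are not reported here. Genes named beyond that were chosen after their values were seen. No test was made, since the table has 1 merged value per region. Other distance limits, scores, calls and overlap rules were tried.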

Additional observations from a re-analysis of the deposited data

How the results depend on the processing

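No paired analysis was possible because the table holds no value per library, and for the same reason no library could be left out. The 6 microglial genes with a FOS region and the 6 with a 4-call region stayed within 1.5 times of these counts, at 4 to 6, under every alternative tried; a limit of 2 or more calls cannot change a 4-call count. Other counts moved with the strictness of the rule. Limited to regions within 1 kb of the gene, the FOS regions numbered 61 in place of 96, and genes with a 4-call region 8 in place of 13. Within 1 kb, 6 neuronal genes had a region in place of 12. Within 10 kb and within 1 kb, 2 Kcn genes had a shared region in place of 4, and 0 neuronal genes had a 4-call region in place of 1. With scores at or above the median, 34 regions at 14 Kcn genes (in place of 42) remained, 4 of them neuronal, with a median score of 34.7 in place of 16.0. With 2 or more calls, 56 regions at 25 Kcn genes remained, 7 of them neuronal, with a median of 24.4. With deposited scores the median was 14.8, and without a distance limit 44 genes had a FOS region. Limits on distance, score or calls can only remove regions, so counts that stayed close under them are no test of the main values. Kcnip1 and Kcnrg had 0 FOS regions within 10 kb, and Kcnj2 had 1. Alternatives for 4-call regions of the microglial and neuronal lists and for single genes were added after seeing the data.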

Other observations

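Other genes of potassium handling and sensing were followed as a list of 21. A FOS region stood at 17 of them (81.0%), against 50.6% of all coding genes, a 4-call region at 8 (38.1%, against 17.5%) and a shared region at 4 (19.0%, against 4.34%). The genes of purinergic signalling and of the inflammasome carried the stronger regions. P2ry12, the ADP receptor whose signal opens THIK-1, scored 71.5. Nlrp3, the inflammasome sensor that responds to potassium efflux, had 8 regions and scored 70.4. P2rx7, the ATP-gated channel through which potassium leaves, had 5 regions and scored 53.3. Nek7, the NLRP3 partner, had 10 regions and scored 50.4, and 2 of its regions were shared. Of the potassium-chloride cotransporter genes, Slc12a7 scored 49.9. The pacemaker channel gene Hcn2 had 1 region of 5.99, and Hcn3 and Hcn4 had none.

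Other ion channel families were taken by symbol. A FOS region stood at 4 of 14 sodium channel (Scn) genes (28.6%), 16 of 26 calcium channel (Cacn) genes (61.5%), 5 of 9 chloride channel (Clcn) genes (55.6%) and 10 of 24 transient receptor potential (Trp) genes (41.7%), against 50.6% of all coding genes. A 4-call region stood at 2 Scn (14.3%), 5 Cacn (19.2%), 0 Clcn and 5 Trp genes (20.8%), against 17.5% of all coding genes. A shared region stood at 2 Cacn genes (7.69%) and at 0 genes of the 3 other families, against 4.34% of all coding genes. The families are small, and no difference between them or from all coding genes was tested.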
